A study of Mus musculus with 12 samples.

Results

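The genes described here are 53 nucleolar ribosome biogenesis genes, taken as a list of symbols. Of these, 9 encode proteins of the box snoRNPs, 18 act on the small ribosomal subunit, 20 on the large subunit, 3 are subunits of RNA polymerase I and 3 are abundant nucleolar proteins. A probe set was used where the array annotation gave it 1 symbol alone, and 52 of the 53 genes had one, out of 18193 genes measured in all. The only probe set of Mrto4 carries several symbols, and the gene was not analysed here. The rule uses symbols alone.

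Ribosomes are built in the nucleolus, where RNA polymerase I transcribes the large precursor of the ribosomal RNAs. Small nucleolar ribonucleoproteins (snoRNPs) guide its chemical modification: those with box C/D RNAs direct ribose methylation and those with box H/ACA RNAs direct pseudouridylation. The U3 snoRNP and the small subunit processome cut out the small subunit RNA. Separate sets of GTPases, helicases, methyltransferases and chaperones mature the large subunit. Genes of this pathway are known as targets of the transcription factor MYC and run high in growing cells, mammary carcinomas among them.

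The tumours were C4-HD, a progestin-dependent mammary carcinoma of the mouse grown in BALB/c animals carrying MPA (medroxyprogesterone acetate, a progestin) until they reached 50 mm2. Each of 6 groups held 2 arrays. In 4 of them the MPA pellet had been taken out and mifepristone (MFP, an antagonist of the progesterone receptor) given at 10 mg/kg/day, with tumours labelled 6, 12, 24 and 48 h. The fifth group is named no MPA and is labelled as treated with saline for 48 h, so it matches the 48 h MFP tumours in time and not the earlier ones. The group named MPA grew with the progestin present, and its labels give no time. The label's treatment protocol calls saline-treated tumours with MPA the control, whereas the arrays labelled as saline-treated are the ones named no MPA. What the no MPA tumours received beside saline rests on that name. The series text lists 12, 24 and 48 h but no 6 h group. MFP tumours differ from MPA tumours by the removal of MPA and by the drug together. The series text calls the replicates independent, but no label ties an array to an animal. A p-value here reflects only how far the samples spread, which may be technical.

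RNA of fixed and paraffin-embedded tissue, 200 ng per labelling, was hybridised to Affymetrix mouse genome arrays. Deposited values are log2 ratios to the averaged MPA arrays (a linear mean), so levels cannot be compared between genes and the presence of a marker cannot be read from its level. The number of arrays limits the precision: with 2 per group, the SD of the difference between replicates over the 52 genes was between 0.32 and 0.47. In whole tumours, fewer cells of a type and less RNA per cell cannot be told apart. The 8 epithelial markers had medians per array of -0.61 to 0.56 with MFP, 0.29 and 0.73 in no MPA and -0.04 and 0.04 in MPA.

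As a group, the ribosome biogenesis genes were lower in the MFP arrays than in both other groups. The 52 genes had a median of -1.04 and -1.24 after 6 h of MFP, -0.93 and -1.10 after 12 h, -0.72 and -0.74 after 24 h and -0.70 and -0.62 after 48 h, with 0.09 and 0.00 in no MPA and 0.01 and -0.01 in MPA. The MFP arrays lay apart from both other groups. The 2 arrays of each group differed in this median by less than the distance from any MFP array to any other array. At 6 h all 52 genes of replicate 1 and 51 of 52 of replicate 2 were below 0. For 29 of the 52 genes, or 55.8%, all 8 MFP arrays were below all 4 other arrays, which held for 821 of the 18193 genes, or 4.51%.

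**Figure D1:**
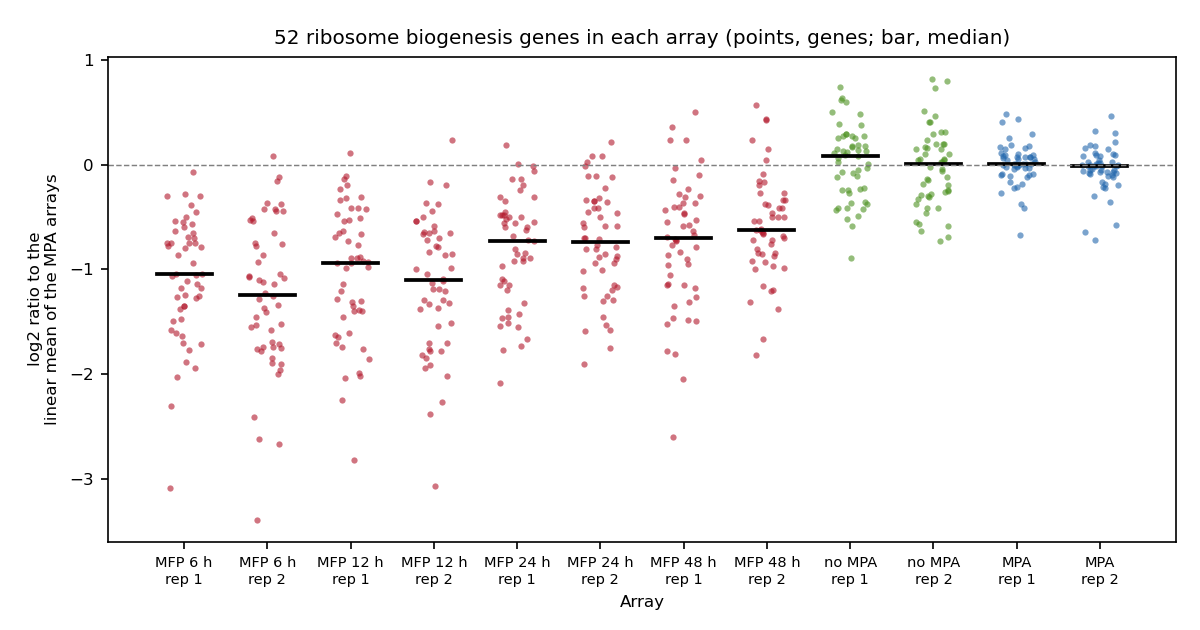
The 52 ribosome biogenesis genes in each of the 12 arrays, as log2 ratios to the MPA mean; each point is a gene and each black bar the median of an array. The medians lie between -1.24 and -0.62 in the 8 MFP arrays, at 0.09 and 0.00 in no MPA and at 0.01 and -0.01 in MPA.

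Tested gene by gene with limma over all 12 arrays (1 mean per group, Benjamini-Hochberg adjustment over all 18193 genes, threshold 0.05), 16 of the 52 genes fell at 6 h of MFP against MPA, with a median log2 fold change of -1.13 against 0.02 over all genes, and 0.94% of all genes fell. At 12 h 24 fell (median -0.98, all genes 0.02), where 2.62% of all genes fell. At 24 h 20 fell (median -0.71, all genes -0.03), beside 4.2% of all genes. At 48 h 15 fell (median -0.68, all genes 0.00), beside 6.02% of all genes. None of the 52 passed in the higher direction at any of the 4 times, where 0.313%, 1.66%, 4.55% and 6.47% of all genes rose. The share of the 52 genes that fell was therefore 30.8% (6 h), 46.2% (12 h), 38.5% (24 h) and 28.8% (48 h).

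These counts depend on few arrays. At 6 h 1 gene fell without either 6 h array or without MPA replicate 2, and 6 without MPA replicate 1. At 12 h the count was 9 and 5 without MFP 12 h replicates 1 and 2, and 13 and 15 without MPA replicates 1 and 2. At 24 h it was 12 and 9 without MFP 24 h replicates 1 and 2, and 7 and 13 without MPA replicates 1 and 2. At 48 h it was 3 without MFP 48 h replicate 1, 4 without MPA replicate 1 and 9 without MPA replicate 2. When the fit held the 4 arrays of a comparison alone, no gene of the 52 passed at any of the 4 times. Quantile normalization left 9, 9, 0 and 0 at 6, 12, 24 and 48 h. It also gives the arrays equal spread, which widens the differences between the 2 MPA arrays, deposited as ratios to their own mean. The loss of calls cannot be told apart from that widening. The medians of the 52 genes per array stayed between -1.18 and -0.49 with MFP.

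**Figure D2:**
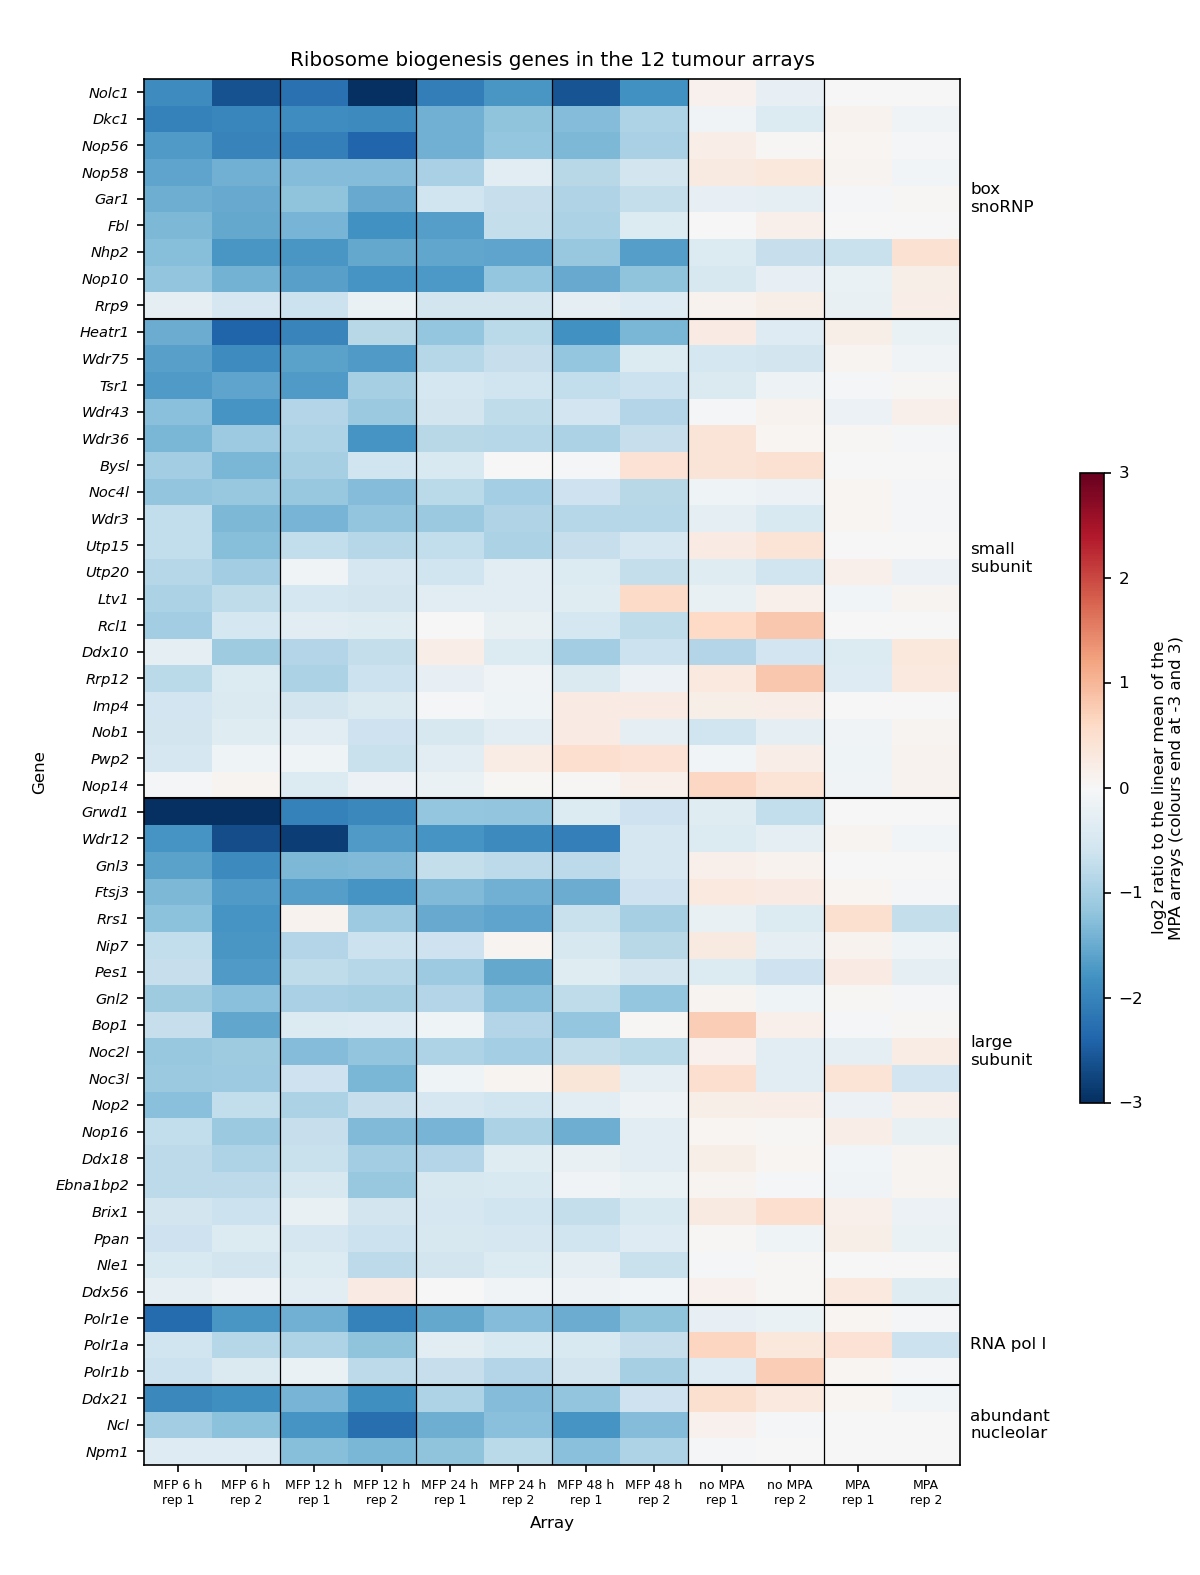
Log2 ratios to the MPA mean for the 52 genes (down the page, by class and then by their log2 fold change at 6 h) in the 12 arrays (across, in pairs of replicates). Blue marks values below 0 and red values above it, ending at -3 and 3. Most box snoRNP genes are blue in the 8 MFP arrays, with Rrp9 the palest of them, and Nop14, Pwp2, Imp4 and Ddx56 stay pale.

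Of the 15 genes that fell at 6 h and had a promoter window here, 3 (20%) carry the letters CACGTG close to their start. This is the E-box that MYC and its partner MAX bind. The windows of these 3 genes are shown here with that motif in capitals. The windows run from 250 bases before to 50 bases after the start of the gene in RefSeq on GRCm38.p6, printed 5′ to 3′ in the direction of the gene. Grwd1 lies at chr7:45830740-45831039 on the minus strand, with the motif starting 35 bases after the start. Tsr1 lies at chr11:74897830-74898129 on the plus strand, with the motif 25 bases after the start. Wdr43 lies at chr17:71615965-71616264 on the plus strand, with the motif 18 bases after the start.
Grwd1: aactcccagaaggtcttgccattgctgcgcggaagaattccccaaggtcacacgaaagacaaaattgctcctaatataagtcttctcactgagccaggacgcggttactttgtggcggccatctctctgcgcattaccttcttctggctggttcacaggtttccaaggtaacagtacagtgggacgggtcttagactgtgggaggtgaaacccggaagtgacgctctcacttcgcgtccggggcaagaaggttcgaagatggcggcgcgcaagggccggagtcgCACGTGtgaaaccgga
Tsr1: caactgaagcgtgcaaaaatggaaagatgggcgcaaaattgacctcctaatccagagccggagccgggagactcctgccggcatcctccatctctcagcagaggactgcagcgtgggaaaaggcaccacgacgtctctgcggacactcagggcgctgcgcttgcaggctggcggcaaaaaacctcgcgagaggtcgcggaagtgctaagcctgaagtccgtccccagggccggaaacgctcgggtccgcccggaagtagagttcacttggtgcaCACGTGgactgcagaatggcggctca
Wdr43: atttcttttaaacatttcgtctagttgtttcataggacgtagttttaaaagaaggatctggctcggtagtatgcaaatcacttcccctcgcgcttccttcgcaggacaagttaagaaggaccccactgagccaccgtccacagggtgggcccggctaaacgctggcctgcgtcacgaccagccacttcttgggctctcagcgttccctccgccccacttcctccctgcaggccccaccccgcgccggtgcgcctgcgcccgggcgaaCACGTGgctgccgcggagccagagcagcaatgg

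The motif is its own reverse complement, so 1 search covers both strands. Of the 52 genes 45 had a window, and 9 of these (20%) held CACGTG, against 1479 of 14452 windows (10.2%) over all genes tested and 18 of 89 (20.2%) over the further genes for snoRNP assembly, both subunits, the RNA polymerase I machinery and the exosome. The share among the genes that fell at 6 h, 3 of 15 windows, was the same 20% as over the 52 genes. By class the motif was in 5 of 16 small subunit windows and 4 of 16 large subunit windows. It was in none of the 8 box snoRNP, 3 RNA polymerase I and 2 abundant nucleolar protein windows. A match is a description of the letters and not a binding site.

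Against MPA, box snoRNP genes had lower median log2 fold changes than the small subunit, large subunit and RNA polymerase I classes at each time. At 6, 12, 24 and 48 h of MFP 6, 8, 6 and 6 of the 9 box snoRNP genes fell, with median log2 fold changes against MPA of -1.50, -1.61, -1.30 and -1.11. The 3 abundant nucleolar genes had medians of -1.14, -1.62, -1.11 and -1.09, close to these at 12 and 48 h. Differences between the classes were not tested. Nop56, a core protein of the box C/D snoRNPs, stood at -1.71 and -2.00 after 6 h of MFP, -2.04 and -2.38 after 12 h, -1.45 and -1.15 after 24 h and -1.35 and -0.97 after 48 h, with 0.19 and 0.03 in no MPA and 0.07 and -0.07 in MPA. All 8 MFP arrays were far below the other 4, and the log2 fold change was -1.86 ± 0.23 (limma adjusted p = 0.0124) at 6 h and -1.16 ± 0.23 (limma adjusted p = 0.012) at 48 h, that is 27.6% and 44.8% of the MPA level. Dkc1, the pseudouridine synthase of the box H/ACA snoRNPs, stood at -2.03 and -1.96 after 6 h of MFP, -1.86 and -1.91 after 12 h, -1.43 and -1.20 after 24 h and -1.31 and -0.93 after 48 h, with -0.11 and -0.41 in no MPA and 0.10 and -0.11 in MPA. In the probe set used here its MFP arrays did not overlap with either other group, and it changed at 6 h by -1.99 ± 0.21 (limma adjusted p = 0.00783). Nop10, a small partner of Dkc1 in the same particle, stood at -1.18 and -1.41 after 6 h of MFP, -1.63 and -1.78 after 12 h, -1.73 and -1.17 after 24 h and -1.52 and -1.20 after 48 h, with -0.49 and -0.25 in no MPA and -0.21 and 0.18 in MPA. It was low in all 8 MFP arrays without overlap, with no array near the MPA values, and it changed by -1.69 ± 0.25 (limma adjusted p = 0.0088) at 12 h.

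Nolc1, a phosphoprotein that binds snoRNPs and shuttles between nucleolus and cytoplasm, stood at -1.88 and -2.62 after 6 h of MFP, -2.25 and -3.07 after 12 h, -2.08 and -1.75 after 24 h and -2.60 and -1.82 after 48 h, with 0.13 and -0.24 in no MPA and 0.01 and -0.01 in MPA. In the probe set used here no MFP array of Nolc1 was above -1.75. Its log2 fold change was -2.66 ± 0.36 (limma adjusted p = 0.00767) at 12 h and -2.21 ± 0.36 (limma adjusted p = 0.00637) at 48 h. Of its other 2 probe sets, 1 was between -1.83 and -0.17 in the MFP arrays, with MPA at 0.59 and -1.015. The other was between -1.31 and -0.19, with MPA at -0.10 and 0.09. Rrp9, a protein specific to the U3 snoRNP, was the exception of the class, at -0.30 and -0.51 after 6 h of MFP, -0.65 and -0.19 after 12 h, -0.55 and -0.56 after 24 h and -0.30 and -0.38 after 48 h, with 0.11 and 0.17 in no MPA and -0.22 and 0.19 in MPA. It overlapped with MPA at 12 h and passed no test, with -0.54 ± 0.22 (limma adjusted p = 0.172) at 24 h. Of the remaining genes Fbl (fibrillarin, the methyltransferase of box C/D snoRNPs) fell at 12 and 24 h, Nop58 (the partner of Nop56) at 6 and 12 h, Gar1 at 6, 12 and 48 h and Nhp2 at 12, 24 and 48 h. The last 2 belong to the box H/ACA core, and the 2 MPA arrays of Nhp2 differed by 1.13.

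Small subunit genes were lower by less. At the 4 times 4, 6, 3 and 3 of the 18 genes fell, with medians of -0.98, -0.77, -0.44 and -0.62. Utp15, a protein of the small subunit processome, stood at -0.75 and -1.28 after 6 h of MFP, -0.73 and -0.85 after 12 h, -0.73 and -0.94 after 24 h and -0.69 and -0.50 after 48 h, with 0.25 and 0.41 in no MPA and 0.00 and 0.00 in MPA. Every MFP array was below the other groups, and of the 4 comparisons with MPA it passed at 24 h, with -0.83 ± 0.22 (limma adjusted p = 0.0429). Wdr3, the counterpart of yeast Utp12, stood at -0.75 and -1.34 after 6 h of MFP, -1.40 and -1.19 after 12 h, -1.11 and -0.90 after 24 h and -0.86 and -0.85 after 48 h, with -0.27 and -0.46 in no MPA and 0.05 and -0.05 in MPA. Its arrays did not overlap between MFP and the rest, and the log2 fold change was -1.29 ± 0.23 (limma adjusted p = 0.0158) at 12 h. Noc4l, the counterpart of yeast Noc4, which pairs with Nop14 in small subunit assembly, stood at -1.18 and -1.14 after 6 h of MFP, -1.14 and -1.29 after 12 h, -0.81 and -1.02 after 24 h and -0.63 and -0.84 after 48 h, with -0.12 and -0.18 in no MPA and 0.07 and -0.07 in MPA. In the probe set used here its 8 MFP arrays lay below the other 4, and it fell at all of the 4 times. It had -0.92 ± 0.19 (limma adjusted p = 0.016) at 24 h.

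The other small subunit genes ranged from values near the MPA level to falls that passed the test. Pwp2, also of the processome, stood at -0.50 and -0.12 after 6 h of MFP, -0.14 and -0.66 after 12 h, -0.31 and 0.22 after 24 h and 0.50 and 0.43 after 48 h, with -0.08 and 0.20 in no MPA and -0.12 and 0.11 in MPA. Its 48 h arrays were above those of MPA and no MPA while the earlier ones were mixed, and it passed no test (-0.04 ± 0.26 (limma adjusted p = 0.953) at 24 h). Nop14 was between -0.41 and 0.15 in the 8 MFP arrays. Wdr43, Wdr75 and Tsr1 fell at 6 and 12 h with 6 h log2 fold changes of -1.50 ± 0.24, -1.77 ± 0.25 and -1.64 ± 0.24; the first pair belongs to the processome and Tsr1 to the late cytoplasmic steps. Wdr36 fell at 12 h and Heatr1 at 48 h. The other small subunit genes that did not pass against MPA at any time were Ddx10, Rrp12, Utp20, Nob1, Ltv1, Bysl, Rcl1 and Imp4, with log2 fold changes between -1.21 ± 0.25 (Bysl, 6 h) and 0.24 ± 0.17 (Imp4, 48 h).

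Large subunit genes held the gene with the smallest adjusted p of all 18193 genes at 6 h, Grwd1, a chaperone of the ribosomal protein Rpl3 whose promoter is printed above. Grwd1 stood at -3.09 and -3.39 after 6 h of MFP, -2.02 and -1.94 after 12 h, -1.15 and -1.18 after 24 h and -0.40 and -0.62 after 48 h, with -0.36 and -0.73 in no MPA and 0.01 and -0.01 in MPA. The 6 h arrays were lowest, each later time was higher, and the 48 h arrays overlapped with no MPA but not with MPA. Its log2 fold change was -3.24 ± 0.21 (limma adjusted p = 0.000319) at 6 h, or 10.6% of the MPA level in the probe set used here, and -0.51 ± 0.21 (limma adjusted p = 0.138) at 48 h. Its other 2 probe sets, tested among all probe sets, stood at -2.43 ± 0.27 (limma adjusted p = 0.00744) and -0.32 ± 0.30 (limma adjusted p = 0.699) at 6 h. The probe set used and the first of these 2 are of the design class that can bind more than 1 transcript. Of the 19 measured genes of the class 4, 6, 7 and 2 fell at 6, 12, 24 and 48 h, with medians of -1.08, -0.81, -0.62 and -0.55.

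Gnl2, a nucleolar GTPase of the large subunit, stood at -1.06 and -1.25 after 6 h of MFP, -0.98 and -1.00 after 12 h, -0.89 and -1.25 after 24 h and -0.77 and -1.16 after 48 h, with 0.08 and -0.12 in no MPA and 0.04 and -0.05 in MPA. In the probe set used here it was low at all 4 times, without overlap, and changed by -1.07 ± 0.22 (limma adjusted p = 0.015) at 24 h. Another probe set was not below MPA at 6 h (0.02 and 0.24) or at 48 h (0.165 and 0.283). Ftsj3, an RNA methyltransferase related to yeast Spb1, stood at -1.35 and -1.69 after 6 h of MFP, -1.65 and -1.78 after 12 h, -1.32 and -1.45 after 24 h and -1.48 and -0.61 after 48 h, with 0.29 and 0.24 in no MPA and 0.06 and -0.06 in MPA. MFP replicate 2 at 48 h was the nearest to the other groups but did not overlap with them, and the log2 fold change was -1.71 ± 0.27 (limma adjusted p = 0.0103) at 12 h. Ddx56, a DEAD-box helicase, stood at -0.28 and -0.16 after 6 h of MFP, -0.31 and 0.24 after 12 h, -0.01 and -0.11 after 24 h and -0.15 and -0.09 after 48 h, with 0.12 and 0.04 in no MPA and 0.29 and -0.36 in MPA. Its MFP and no MPA arrays all lay between the 2 MPA arrays, with -0.02 ± 0.26 (limma adjusted p = 0.974) at 24 h.

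Noc2l, the counterpart of yeast Noc2, stood at -1.14 and -1.06 after 6 h of MFP, -1.30 and -1.19 after 12 h, -0.92 and -1.01 after 24 h and -0.72 and -0.81 after 48 h, with 0.13 and -0.33 in no MPA and -0.27 and 0.22 in MPA. In the probe set used here its MFP arrays were all below the other 4, and it fell at 12 and 24 h. Pes1, which forms the PeBoW complex with Bop1 and Wdr12, stood at -0.69 and -1.71 after 6 h of MFP, -0.77 and -0.86 after 12 h, -1.09 and -1.53 after 24 h and -0.37 and -0.54 after 48 h, with -0.41 and -0.63 in no MPA and 0.25 and -0.30 in MPA. Its 48 h arrays overlapped with no MPA, and it passed at 24 h (-1.28 ± 0.33 (limma adjusted p = 0.0385)). In the probe set used here Wdr12 was between -2.82 and -0.50 in the MFP arrays and fell at 12 and 24 h. Of its other probe sets, 1 was between -1.42 and -0.73 in these arrays and 1 between -0.29 and 0.03. Bop1 passed at none of the 4 times. Gnl3 (nucleostemin, a GTPase) fell at 6, 12 and 24 h, with -1.76 ± 0.19 (limma adjusted p = 0.00811) at 6 h. The other 10 genes of the class, Ddx18, Nop2, Nop16, Rrs1, Brix1, Ebna1bp2, Nip7, Noc3l, Ppan and Nle1, passed at no time against MPA, with log2 fold changes between -1.43 ± 0.44 (Rrs1, 24 h) and 0.13 ± 0.40 (Noc3l, 48 h). The 2 MPA arrays differed by more than 0.5 in 8 of the 52 genes, by 1.2 in Rrs1 and 0.99 in Noc3l, 2 of the genes that did not pass. That gap in Rrs1 belongs to the probe set used here. Its other probe set was between -2.06 and -0.67 in the MFP arrays. There, no MPA stood at -0.10 and -0.19 and MPA at -0.005 and 0.005.

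RNA polymerase I was measured through 3 subunits. Polr1e, the subunit known as PAF53, stood at -2.30 and -1.74 after 6 h of MFP, -1.45 and -2.02 after 12 h, -1.54 and -1.29 after 24 h and -1.49 and -1.21 after 48 h, with -0.24 and -0.19 in no MPA and 0.07 and -0.07 in MPA. All of its MFP arrays were at or below -1.21 and did not overlap with the rest, and it changed by -2.02 ± 0.26 (limma adjusted p = 0.0141) at 6 h and -1.35 ± 0.26 (limma adjusted p = 0.0114) at 48 h. Polr1a, the largest subunit, stood at -0.60 and -0.86 after 6 h of MFP, -0.93 and -1.21 after 12 h, -0.35 and -0.46 after 24 h and -0.46 and -0.70 after 48 h, with 0.64 and 0.31 in no MPA and 0.44 and -0.64 in MPA. The 2 MPA arrays differed by 1.08, the MFP arrays overlapped with MPA at 6, 24 and 48 h, and no test passed. Polr1b, the subunit next in size, stood at -0.65 and -0.44 after 6 h of MFP, -0.19 and -0.79 after 12 h, -0.68 and -0.88 after 24 h and -0.55 and -1.00 after 48 h, with -0.38 and 0.73 in no MPA and 0.05 and -0.05 in MPA. It was below MPA in all MFP arrays but overlapped with no MPA replicate 1, and it did not pass (-0.78 ± 0.35 (limma adjusted p = 0.207) at 24 h).

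The 3 abundant nucleolar proteins all fell at 12, 24 and 48 h. Ddx21, a helicase that binds the RNA polymerase I transcript, stood at -1.94 and -1.85 after 6 h of MFP, -1.39 and -1.85 after 12 h, -0.92 and -1.30 after 24 h and -1.18 and -0.62 after 48 h, with 0.48 and 0.29 in no MPA and 0.07 and -0.08 in MPA. Its group mean was lowest at 6 h (-1.89 ± 0.25 (limma adjusted p = 0.0153)). Ncl (nucleolin, which binds the ribosomal RNA precursor) stood at -1.05 and -1.23 after 6 h of MFP, -1.76 and -2.27 after 12 h, -1.46 and -1.25 after 24 h and -1.78 and -1.31 after 48 h, with 0.14 and -0.06 in no MPA and -0.02 and 0.02 in MPA. Npm1 (nucleophosmin, a chaperone that also carries subunits to the cytoplasm) stood at -0.39 and -0.38 after 6 h of MFP, -1.28 and -1.37 after 12 h, -1.20 and -0.81 after 24 h and -1.26 and -0.92 after 48 h, with -0.03 and -0.02 in no MPA and 0.00 and 0.00 in MPA. In the probe sets used here the 6 h arrays of Ncl and Npm1 were above all their later MFP arrays, but neither gene passed at 12 h against 6 h (limma adjusted p = 0.433 and 0.377). Another probe set of Ncl was lowest at 6 h, at -1.76 and -1.67, and the second of Npm1 stood at -1.15 and -0.46 at 6 h, overlapping with later times. Npm1 had a log2 fold change of -0.39 ± 0.21 (limma adjusted p = 0.423) at 6 h and -1.32 ± 0.21 (limma adjusted p = 0.0095) at 12 h. None of the MFP arrays of the 3 genes overlapped with the other groups in these probe sets.

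**Figure D3:**
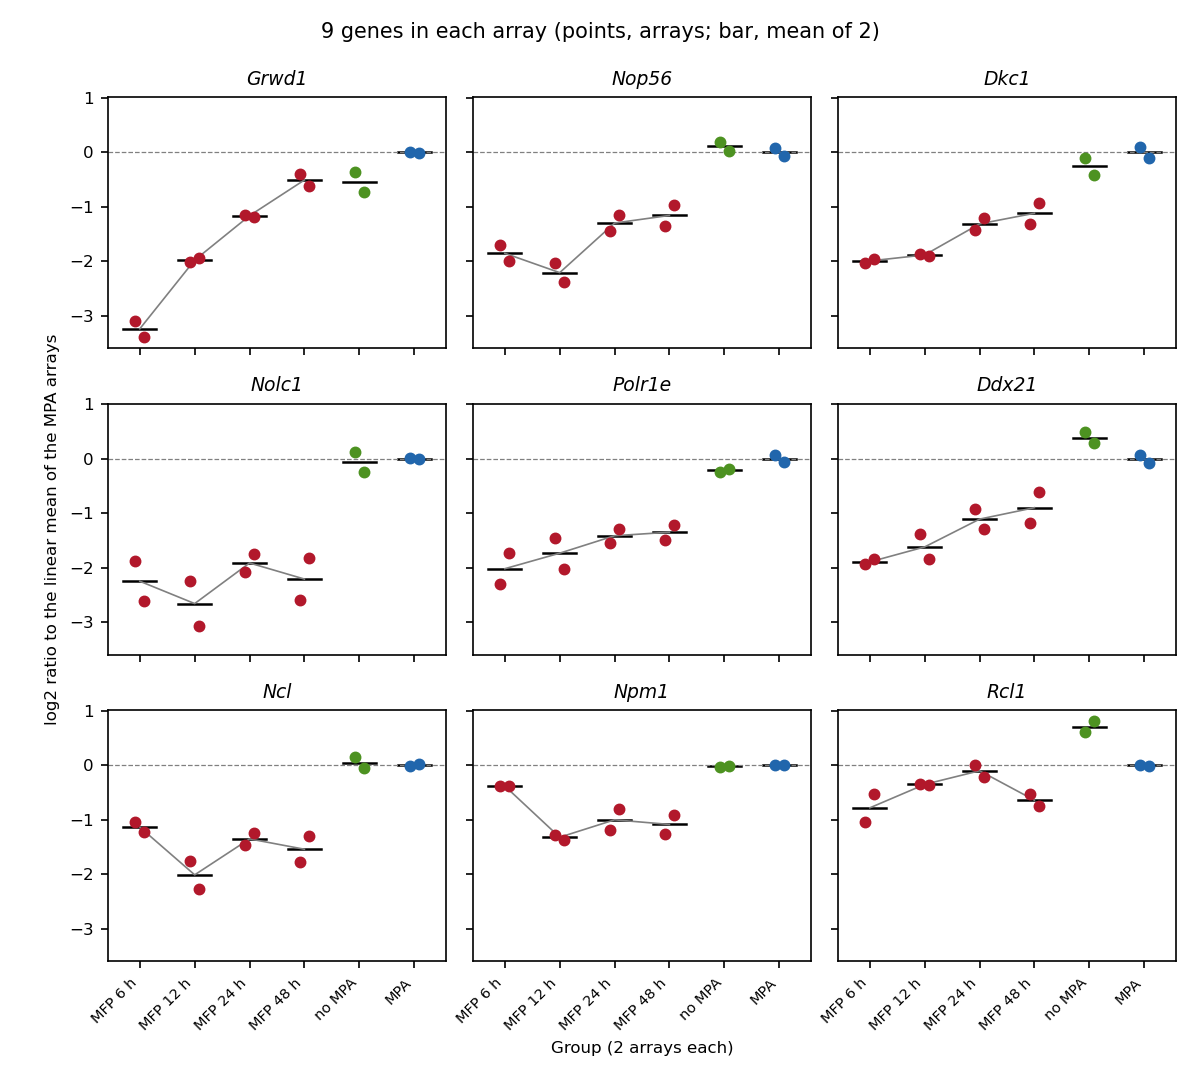
Log2 ratios to the MPA mean of 9 genes, by group, each in the probe set used here. Points are arrays and bars the mean of the 2 arrays. Grwd1 stands at -3.09 and -3.39 at 6 h and at -0.40 and -0.62 at 48 h, Nolc1 is at or below -1.75 in each MFP array, Npm1 is at -0.39 and -0.38 at 6 h before its lower later values, and Rcl1 is highest in no MPA at 0.60 and 0.80.

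Over the 4 MFP times, the lowest group mean fell on 6 h in 25 of the 52 genes, on 12 h in 21, on 24 h in 5 and on 48 h in 1. A slope fitted to the 4 group means per doubling of the hours passed the test in the upward direction in 15 genes and in the downward direction in none, where 8.45% of all genes passed upward and 6.3% downward. The median slope was 0.16 per doubling, against -0.01 over all genes, and a positive slope here means a value less far below MPA at the later times. By class 4 of 9 box snoRNP, 6 of 18 small subunit, 4 of 19 large subunit, 0 of 3 RNA polymerase I and 1 of 3 abundant nucleolar genes passed. Grwd1 had the steepest slope (0.90 ± 0.07 (limma adjusted p = 0.000287)), and the smallest adjusted p of all genes in this test. Bysl, a late assembly factor of the small subunit chosen here after its values were seen, stood at -1.04 and -1.37 after 6 h of MFP, -0.99 and -0.59 after 12 h, -0.45 and -0.01 after 24 h and -0.03 and 0.44 after 48 h, with 0.39 and 0.46 in no MPA and 0.01 and -0.01 in MPA. In the probe set used here its 6 h arrays were the lowest and its 48 h arrays stood on either side of the MPA arrays. The slope was 0.48 ± 0.08 (limma adjusted p = 0.00382). Its other probe set stood at -1.39 and -1.26 at 6 h and -0.27 and -0.45 at 48 h. There, no MPA stood at -0.38 and -0.34 and MPA at -0.33 and 0.27. The count was 6 without either 6 h array or without MFP 48 h replicate 2.

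Between successive times none of the 52 genes passed. At 12 h against 6 h limma called no gene at all (0% of 18193), with 5 of the 52 and 1348 of all genes at an unadjusted p under 0.05 and a median of 0.03. At 24 h against 12 h the median was 0.32 (all genes -0.06). An unadjusted p under 0.05 was found in 13 of the 52 and in 2871 of the 18193 genes. After adjustment 2.54% of all genes passed in either direction. At 48 h against 24 h the median was 0.10 (all genes 0.04). An unadjusted p under 0.05 was found in 3 of the 52 and in 2559 of the 18193 genes, and after adjustment 2.35% of all genes passed. The genes whose windows held CACGTG included 6 of the 15 with an upward slope that passed (40%) and 3 of 30 with a window among the rest (10%), a split seen after the values and not tested.

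The no MPA tumours had these genes near the MPA level. In no MPA against MPA no gene of the 52 passed (median 0.03, all genes 0.01), and limma called 0% of all genes. At an unadjusted p under 0.05 stood 3 of the 52 and 1198 of all genes, and the smallest adjusted p was 0.647 among the 52 and 0.114 over all. The lowest log2 fold change of the 52 was -0.69 and the highest 0.70. In 14 of the 52 both no MPA arrays were below both MPA arrays, and in 13 both were above. Over all 18193 genes both were below in 3151 and above in 3397. A difference smaller than the spread of 2 arrays could not be seen in this comparison.

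Against no MPA, tumours with 48 h of MFP showed 17 of the 52 genes lower and none higher (median -0.70, all genes -0.04), where 5.03% of all genes fell and 7.49% rose. By class 5 of 9 box snoRNP (median -0.86), 4 of 18 small subunit (-0.41), 4 of 19 large subunit (-0.51), 1 of 3 RNA polymerase I (-1.05) and all 3 abundant nucleolar genes (-1.28) fell. The smallest adjusted p was that of Ncl, -1.58 ± 0.24 (limma adjusted p = 0.00392). In the same comparison the 8 epithelial markers had a median of -0.74, and 3 of them fell and none rose. The 12 macrophage genes had a median of 2.57, and 11 of them rose. The part of such shifts in the fall of the 52 genes was not tested. Rcl1, the counterpart of a yeast protein that acts with Bms1 in small subunit maturation, stood at -1.04 and -0.53 after 6 h of MFP, -0.34 and -0.37 after 12 h, 0.01 and -0.22 after 24 h and -0.53 and -0.76 after 48 h, with 0.60 and 0.80 in no MPA and 0.01 and -0.01 in MPA. It was above MPA in both no MPA arrays and near or below it with MFP, with -1.34 ± 0.22 (limma adjusted p = 0.00496) at 48 h against no MPA, while it did not pass against MPA. Grwd1 was level with no MPA at 48 h (0.03 ± 0.21 (limma adjusted p = 0.954)). The count was 5 without MFP 48 h replicate 1, 4 and 5 without no MPA replicates 1 and 2, and 9 on the 4 arrays alone.

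Further genes of the pathway came from lists chosen by role, and differences between these lists and the 52 genes were not tested. Of 8 snoRNP assembly genes 4, 2, 2 and 2 fell at 6, 12, 24 and 48 h, with medians of -1.21, -0.61, -0.57 and -0.26. Naf1, an assembly factor of box H/ACA snoRNPs, changed by -1.48 ± 0.25 at 6 h and -1.60 ± 0.25 at 48 h (limma adjusted p = 0.0283 and 0.00575). Of 36 further small subunit genes 4, 9, 7 and 5 fell (medians -0.57, -0.64, -0.52 and -0.40), among them Utp6 at -1.77 ± 0.29 and Utp18 at -1.58 ± 0.22 at 6 h (adjusted p = 0.0275 and 0.0159), both of the processome. Of 34 further large subunit genes 6, 8, 5 and 9 fell (medians -0.75, -0.59, -0.33 and -0.39), with the GTPase Gtpbp4 at -1.89 ± 0.25 at 6 h (adjusted p = 0.0145). None of the genes on these 3 lists rose against MPA at any of the 4 times.

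Of 12 measured genes of the wider RNA polymerase I machinery 0, 1, 2 and 2 fell at 6, 12, 24 and 48 h and 1 rose at 48 h, with medians of -0.23, -0.12, -0.35 and -0.48. The riser was Polr2e, a subunit shared by the nuclear RNA polymerases, at 0.94 ± 0.20 (limma adjusted p = 0.0169). Taf1d, of the promoter factor SL1, changed by -1.43 ± 0.27 at 12 h (adjusted p = 0.0189). Of 14 RNA exosome genes, whose complex trims the precursors, 3, 3, 2 and 2 fell (medians -0.38, -0.56, -0.72 and -0.47). Of 79 cytosolic ribosomal protein genes 44 were measured, and 1, 5, 8 and 9 of them fell, with medians of -0.09, -0.70, -0.27 and -0.37. At 6 h they were thus near 0 where the snoRNP genes were at -1.50, with Rpl12 the one that fell (-1.75 ± 0.28, adjusted p = 0.0263). The difference between these lists was not tested. In no MPA against MPA none of the genes on these lists passed.

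**Figure D4:**
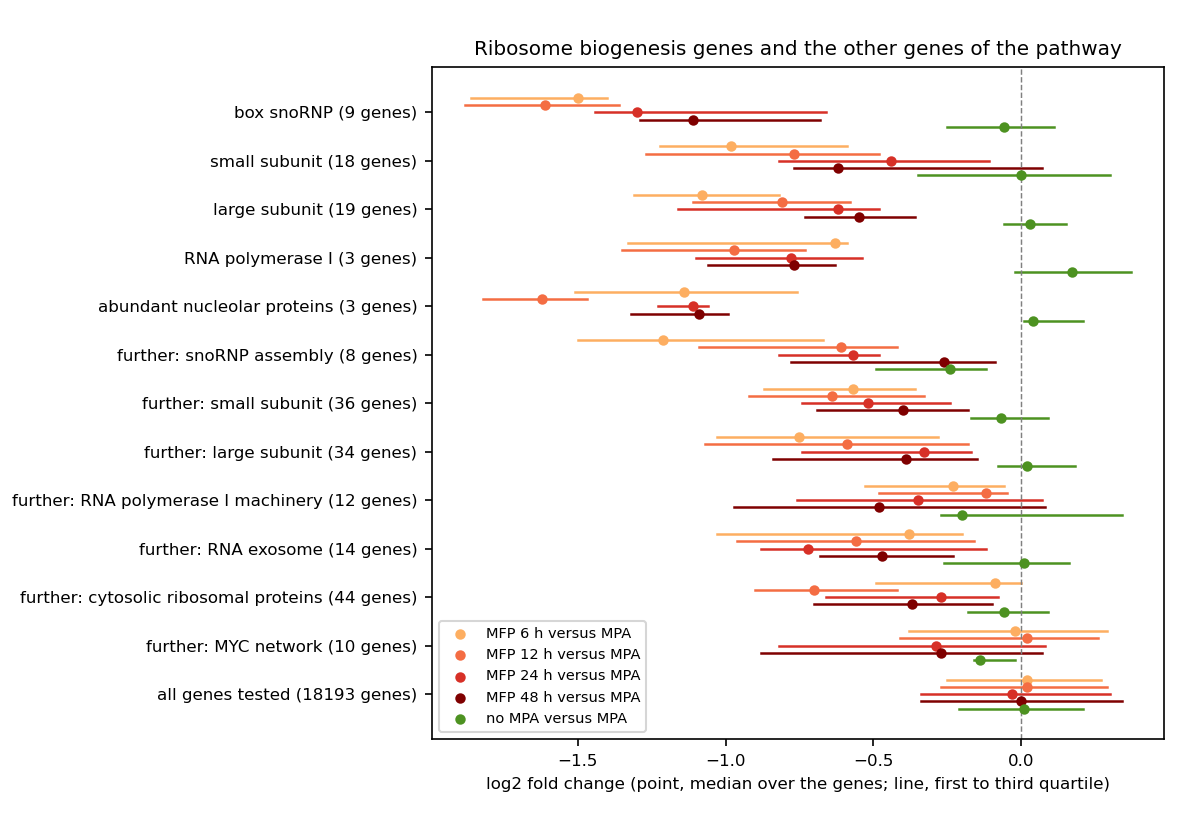
Median log2 fold change (points) with the first and the third quartile (line ends) of each class of the 52 genes, of the further pathway lists and of all genes tested, for MFP at 6, 12, 24 and 48 h and for no MPA, each against MPA. The box snoRNP medians run between -1.61 and -1.11 with MFP and the no MPA points lie between -0.24 and 0.17, beside all genes between -0.03 and 0.02.

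Myc itself, on the list of the MYC network, stood at -1.32 and -2.08 after 6 h of MFP, -1.75 and -1.71 after 12 h, -1.46 and -1.49 after 24 h and -1.80 and -1.12 after 48 h, with 0.19 and 0.01 in no MPA and 0.05 and -0.05 in MPA. The MFP arrays were all below the other 4, with a log2 fold change of -1.70 ± 0.29 at 6 h (limma adjusted p = 0.0283), and it fell at all 4 times. Of the other 9 genes of that list none passed against MPA at any time, and the medians of the list were -0.02, 0.02, -0.29 and -0.27 at 6, 12, 24 and 48 h.

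Most of the 52 genes have several probe sets: 34 had more than 1 and 18 had 1, for 103 in all. The one with the largest SD over the arrays stood for a gene. The values and overlaps given for a gene are those of that probe set unless another is named. Tested on their own in a fit over all 34945 probe sets with 1 symbol, 35, 41, 31 and 26 of the 103 fell at 6, 12, 24 and 48 h and none rose. The shares of all genes given above belong to the fit by gene and cannot be set beside these counts. Probe sets of a gene disagreed in direction in a comparison against MPA or no MPA, where at least 1 passed, for 5 genes. Against MPA 1 of 3 probe sets of Dkc1 stood at 0.26 ± 0.30 at 48 h, 1 of 3 of Gnl2 at 0.13 ± 0.26 at 6 h, 1 of 2 of Noc2l at 0.01 ± 0.25 at 6 h and 1 of 4 of Noc4l at 0.20 ± 0.17 at 6 h. The same probe set of Gnl2 stood at 0.22 ± 0.26 at 48 h against MPA and at 0.30 ± 0.26 against no MPA. That of Noc4l stood at 0.03 ± 0.17 at 24 h against MPA. For Noc4l and Grwd1 the 2 probe sets that fell at 6 h are of the design class that can bind more than 1 transcript. The probe sets used for Nop56, Dkc1, Gar1, Wdr43, Tsr1 and Polr1e are of that class too. For Pes1 the probe set used here stood at 0.06 ± 0.32 at 48 h against no MPA while the other passed. In the slope over time Ddx18, Grwd1 and Imp4 each had 1 probe set with a slope of about 0 on the other side, at -0.05 ± 0.08, -0.01 ± 0.10 and -0.02 ± 0.07.

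Imp4, of the Mpp10 complex, stood at -0.57 and -0.44 after 6 h of MFP, -0.54 and -0.44 after 12 h, -0.06 and -0.12 after 24 h and 0.24 and 0.24 after 48 h, with 0.17 and 0.20 in no MPA and 0.00 and 0.00 in MPA. In the probe set used here its 6 and 12 h arrays were below both other groups and its 48 h arrays above MPA. Another probe set stood at -0.25 and -0.45 at 48 h, below MPA, and the last at 0.27 and -0.06. Ddx18, a helicase, stood at -0.79 and -0.93 after 6 h of MFP, -0.66 and -1.04 after 12 h, -0.89 and -0.36 after 24 h and -0.23 and -0.34 after 48 h, with 0.18 and 0.05 in no MPA and -0.09 and 0.08 in MPA. In the probe set used here its MFP arrays were all below the other 4, with a slope of 0.19 ± 0.07 (limma adjusted p = 0.107). Its other 2 probe sets overlapped with MPA, 1 at 0.115 and 0.184 at 48 h and 1 at 0.008 in MFP 6 h replicate 1.

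Other measures moved with MFP as well. The 12 macrophage genes, each averaging 1 in MPA on the linear scale, had summed ratios of 8.4 to 8.9 after 6 h of MFP, 11.7 to 12.6 after 12 h, 21.4 to 26.6 after 24 h and 50.9 to 51.1 after 48 h, with 8.6 to 9.3 in no MPA and 6.5 to 17.5 in MPA. The 10 fibroblast genes reached 28.6 to 34.5 at 48 h, against 7.2 to 8.3 in no MPA and 6.3 to 13.7 in MPA. Genes of the exocrine pancreas (10 of 12 measured) summed to 262.7 to 749.7 after 6 h of MFP, 12.7 to 21.9 after 12 h, 23.2 to 1203.2 after 24 h and 334.7 to 532.0 after 48 h, with 5.7 to 6.1 in no MPA and 4.6 to 15.4 in MPA. Liver genes (11 of 12 measured) summed to 144.0 to 188.3 at 24 h, and to 25.1 at most in the other MFP arrays, 3.4 in no MPA and 18.7 in MPA. Skeletal muscle genes summed to 716.8 and 13.6 in the 2 arrays at 48 h, against 10.9 to 13.1 in MPA. The difference of the 3' and 5' control probe sets of Actb was 0.20 and 0.13 after 6 h of MFP, 0.34 and 0.36 after 12 h, 0.35 and 0.50 after 24 h and 0.47 and 0.59 after 48 h, with -0.09 and 0.14 in no MPA and -0.07 and 0.05 in MPA. For Gapdh it was 0.10 and -0.06 after 6 h of MFP, 0.28 in both arrays after 12 h, 0.42 and 0.55 after 24 h and 0.48 and 0.37 after 48 h, with -0.05 and 0.04 in no MPA and 0.16 and -0.12 in MPA. The part of these differences, and of the other cell types and organs, in the results above was not tested. Without the 24 h arrays 18, 23 and 16 of the 52 genes fell at 6, 12 and 48 h. The control probe sets for 18S ribosomal RNA stayed between -0.11 and 0.08 in all arrays.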

How the data were processed

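Tumour RNA was measured on 12 Affymetrix arrays, 2 per group. The values are GCRMA-processed per the submitters' processing notes, in log2 units as deposited by the authors; no version and no later step is given in the sources used here. On the linear scale the MPA arrays average 1 in 45099 of 45101 probe sets (tolerance 0.0001). Of the probe sets, 34945 carried 1 symbol and 932 several. Each of 18193 genes was represented by its probe set of largest SD across the 12 arrays. Tests used limma 3.58.1 in R 4.3.3: 1 mean per group, 12 arrays, 6 residual degrees of freedom plus a prior of 4.21, first group minus second, Benjamini-Hochberg adjustment over all genes, threshold 0.05. The procedure was tested on simulated data with normal noise of the spread of these genes, in which 200 genes were changed. The adjustment depends on how many genes change, so the shares recovered hold for that setting and can differ in the data. Against MPA, 21% of changes of 1 log2 unit were recovered at 6 h and 19.8% at 24 h. Of changes of 2 units 77.2% and 79.2% were recovered. False calls made up 4.51% and 4.74% of the calls, and 6.12% for the slope. A gene that did not pass may thus still have changed. Values after ± are standard errors.

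Values of every array are given, within each class, for the 3 genes with the smallest p and the 1 with the largest p at 24 h against MPA, for up to 6 genes passing against no MPA or between successive MFP times, and for genes whose probe sets disagree where at least 1 passes. Up to 2 genes per direction stand for each further list. The genes and lists were chosen with earlier results of these data known. Of 198 further pathway genes listed, those without a probe set of their own were not analysed here. Alternatives were the mean of the probe sets or each on its own, median centring, quantile normalization, array weights, a filter on low SD, a robust prior, the compared arrays alone and leaving out arrays.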

Additional observations from a re-analysis of the deposited data

Results flagged for a closer look

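The difference between the effects of MFP at its 4 times was tested as a slope of the group means per doubling of the hours. It passed in 15 of the 52 genes with limma, each time upward, where 8.45% of all genes passed upward. The steepest slope was that of Grwd1, 0.90 per doubling on the log2 scale. Other large subunit genes were Gnl3 at 0.39, Noc3l at 0.44 and Nop2 at 0.26. Among box snoRNP genes the slope was 0.30 in Nop56, 0.31 in Nop58, 0.32 in Dkc1 and 0.28 in Gar1. Among small subunit genes it was 0.48 in Bysl, 0.38 in Wdr75, 0.37 in Tsr1, 0.31 in Ltv1, 0.27 in Wdr43 and 0.26 in Imp4. Ddx21 had a slope of 0.35. The 2 MPA arrays of Noc3l differed by 0.99, and Grwd1 and Imp4 each had 1 probe set with a slope of about 0.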

How the results depend on the processing

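No paired analysis was possible because the labels give no replicate numbers and the numbers used here follow the order of the arrays. The counts of the 52 genes that fell at 6, 12, 24 and 48 h of MFP against MPA were 16, 24, 20 and 15. They were 9, 9, 0 and 0 after quantile normalization and 0 at each time on the compared arrays alone, a fit with fewer samples; array weights gave 11 at 24 h. Against no MPA, 17 genes fell at 48 h, 1 after quantile normalization and 9 on the compared arrays alone. The count of upward slopes, 15, was 9 after quantile normalization. Between times, where none passed, 1 gene passed at 12 h against 6 h after quantile normalization, and 1 at 24 h against 12 h with the mean of the probe sets. Quantile normalization gives the arrays equal spread (SD over all genes 0.29 and 0.30 in the MPA arrays as deposited, 0.56 to 0.88 in MFP). The other causes were not tested. In no MPA against MPA the count was 0 under each alternative. Leaving out 1 array gave 1 to 18 genes (6 h), 5 to 23 (12 h), 7 to 20 (24 h), 3 to 16 (48 h), 4 to 18 (against no MPA) and 6 to 15 (slope). Leaving out both 24 h arrays, chosen after the data were seen, gave 18, 23, 16, 17 and 13 at 6, 12 and 48 h, against no MPA and for the slope.

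None of the sign changes among named genes concerned a value that passed. With median centring Pwp2 was at 0.01 and Ddx56 at 0.03 at 24 h. Ddx56 was at -0.03 at 12 h after quantile normalization, and Grwd1 at -0.21 at 48 h against no MPA with the mean of the probe sets. Leaving out 1 array put Ddx56 in the range -0.51 to 0.14 (6 h), -0.32 to 0.33 (12 h), -0.35 to 0.30 (24 h) and -0.41 to 0.24 (48 h). It put Pwp2 between -0.31 and 0.23, Rcl1 between -0.22 and 0.01 and Polr1a between -0.85 and 0.24 at 24 h, Polr1a between -1.02 and 0.06 at 48 h, and Grwd1 between -0.16 and 0.22 at 48 h against no MPA.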
